A study of Oryctolagus cuniculus with 34 samples.

Results

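Gene expression was compared between repaired supraspinatus muscles of rabbits taken at a long and at a short term after repair. The supraspinatus is a rotator cuff muscle of the shoulder. The comparison holds 10 of the 34 bulk RNA sequencing libraries of the series, 5 labelled repair only at the long term and 5 labelled repair only at the short term, and each library is 1 deposited table of raw read counts per gene. The members were chosen by these labels, and genes named RPL or RPS plus a digit, together with TPT1, were left out by rule. Set beside them are 5 long-term and 5 short-term muscles repaired with a matrix gel, 10 uninjured muscles of the long term and 4 short-term muscles with the injury only. The labels give neither weeks, strain, sex nor age, and uninjured muscle is labelled for the long term and injury-only muscle for the short term. They also do not say that the libraries of a group are separate animals, so p-values measure the spread between these libraries, which may in part be technical. Animal codes link long-term repaired to uninjured muscles, and differences between these groups were fitted without that pairing.

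After a tendon tear and its repair, muscle goes through clearance of debris by macrophages, proliferation of satellite cells and of stromal cells, deposition of collagen by fibro-adipogenic progenitors, and maturation of the fibres that were formed or spared. Fibres that lose their nerve supply return to the fetal acetylcholine receptor, in which the gamma subunit takes the place of the epsilon subunit, and spread it over the membrane. Fibrosis and fat deposition are the well-known late features of rotator cuff muscle.

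Term and processing could not be told apart in these libraries. The long-term repair libraries held 12776624 to 13502989 counts, against 29681085 to 32081366 in short-term repair. The left-out ribosomal genes took 0.293% to 0.397% of the counts in long-term repair and 1.89% to 3.37% in short-term repair. With them kept, 78 could be tested and had a median log2 difference of -3.17 (long minus short), with 68 lower and 5 higher. The headers of the long-term tables name the aligner STAR, and those of the short-term tables do not. The results are therefore given as ranks among all genes and as changes within pathways, with the medians of the lists in the gel-treated muscles beside them, and differences within each term for the lists and genes where they are named. Short-term replicate 4 lay apart from the other 4 short-term repairs: on the first principal component, with 61.1% of the variance, it scored 32.5 against -122 to -50.3 for those 4 and 38.9 to 75.6 for long-term repair. Its 10 most abundant genes held 32.3% of its counts, against 13.3% to 21.7% in the other 4, and printed list counts and medians that moved by over 1.5 times without it are given without it. Among the injury-only muscles, replicate 3 lay apart. Its 10 most abundant genes held 13.8% of its counts, against 28.9% to 33.9% in the other injury-only muscles. Differences from injury-only muscle rest in part on that library. Members of a list can move together in a library, so counts of members above or below another group are not independent.

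All libraries were fitted together with edgeR's quasi-likelihood test, with a Benjamini-Hochberg adjusted p below 0.05 as the threshold for a call. Of 12882 genes tested, 2320 were higher and 3578 lower in long-term repair (18% and 27.8%, or 45.8% in all), and the median log2 difference over all genes was -0.11. The counts called in each list below are to be read beside these shares. The values of the long-term and short-term libraries did not overlap in 22.3% of genes. Without short-term replicate 4, 24.3% of genes were higher and 28.2% lower, or 52.6% in all. Of the called genes 39.3% were higher; with library totals alone as the scaling 17.9% of the called genes were higher, and the median of all genes was -0.49, a shift of -0.37. Of the genes called and named below, TIMP4, CX3CR1, LRP4, GPAM, FOXO3, FLT1, CDH5, MYH11 and ATF6 were not called with that scaling, MYH4, ACTA2, IER3 and DDN were not called by limma voom with quality weights, and CX3CR1, CS and ACTA2 were not called in a fit of the compared groups alone. Between the gel-treated groups, which share no library with these, 21.7% of genes were higher and 26.4% lower in the long term, or 48.1% in all. Of the 5898 genes called in repair, 95.88% had a gel difference of the same sign, and 70.24% were also called there. Gel-treated and repaired muscles share their terms and the processing of those terms. Values below are log2 differences, long minus short term, with their standard errors (SE), and CPM, counts scaled to a common library total, by replicate 1 to 5 within a group.

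Markers of skeletal muscle were abundant in both groups. Of 12 muscle identity genes, 5 were higher in long-term repair, 0 lower, and the median difference was 0.93, at the 90.9th percentile of all genes. The muscle creatine kinase gene CKM had 11607 to 16615 CPM in long-term repair and 1519 to 29399.9 CPM in short-term repair. Myoglobin (MB), the oxygen store of oxidative fibres, had 1042, 1650.5, 1627, 1536 and 1768 CPM in long-term repair, against 771, 702, 535, 309 and 235 CPM in short-term repair. Every long-term value was above every short-term value, and MB rose by 1.58 (SE 0.36, adjusted p = 0.000728 by edgeR). The M-band protein gene MYOM1 also rose, by 1.47 (SE 0.33, adjusted p = 0.000734 by edgeR). Without short-term replicate 4, whose mean over the list was the highest of the short-term repairs, 9 of the 12 were higher, with a median of 1.49. In the gel the list's median was 0.46. Within terms it was -0.01 for repaired minus uninjured muscle in the long term and -0.82 for repaired minus injury-only muscle in the short term. In bulk tissue, fewer cells of a type and less RNA per cell cannot be told apart.

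**Figure D1:**
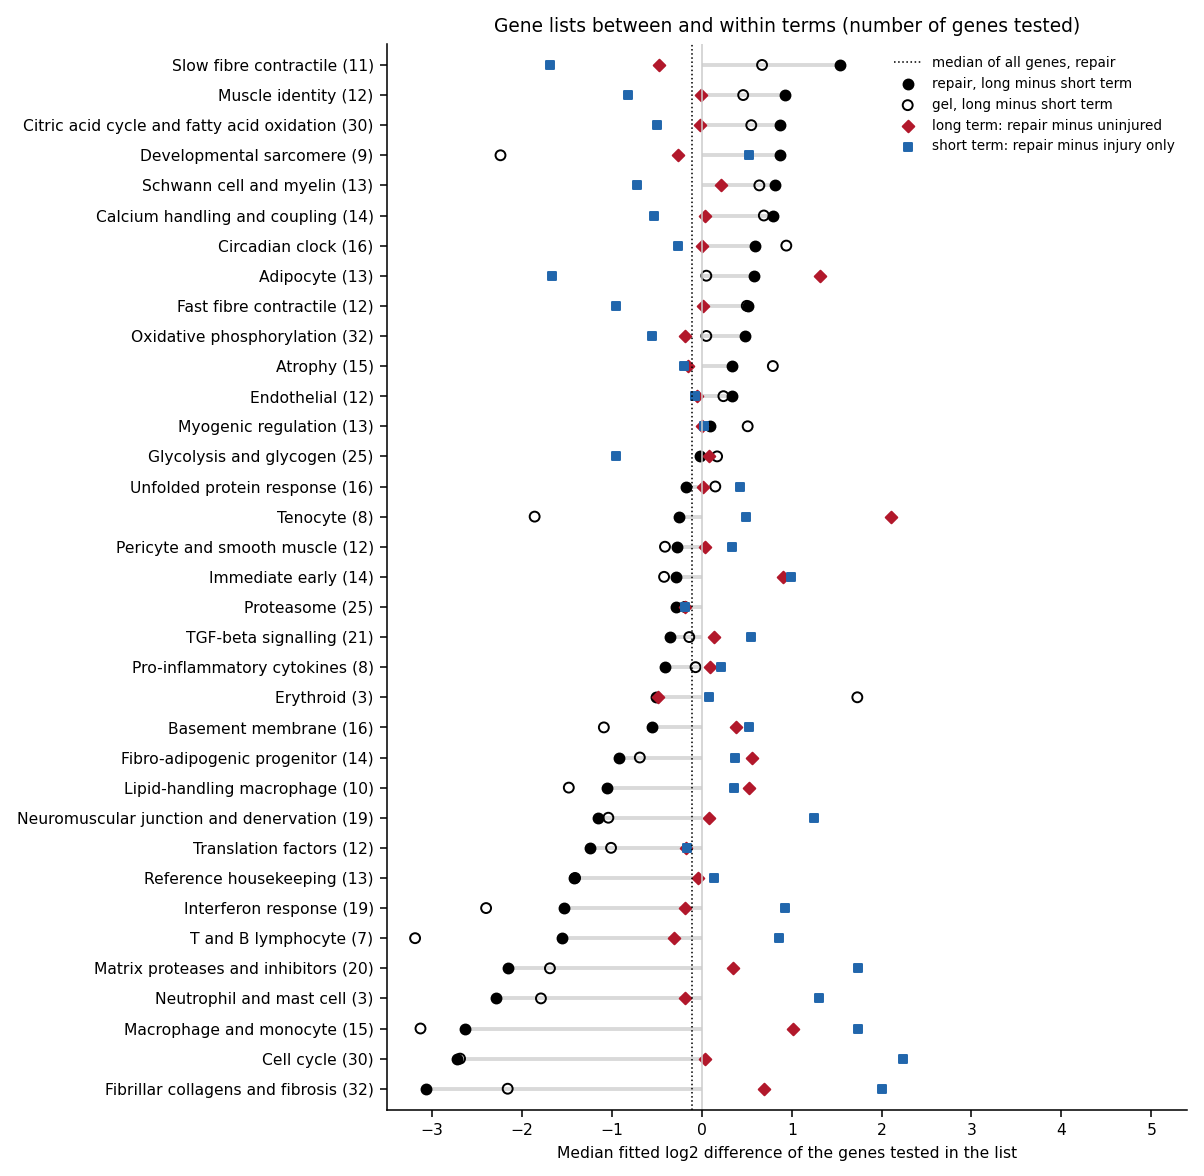
Median fitted log2 difference of each gene list. Filled circles are repair, long minus short term, and open circles gel, long minus short term; diamonds are repaired minus uninjured muscle in the long term and squares repaired minus injury-only muscle in the short term; the dotted line is the median of all genes in repair. In repair, collagen, cell cycle and macrophage genes lie lowest between terms and slow fibre genes highest; in the gel, lymphocyte genes lie lowest (-3.19) and erythroid genes highest (1.73).

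Genes of fibrillar collagens and fibrosis had the lowest median of the 35 lists. Of 32 members tested, 29 were lower in long-term repair, 0 were higher, and the median was -3.07, at the 3rd percentile of all genes. COL1A1, the main chain of type I collagen, had 389, 100.2, 285, 850.4 and 201 CPM in long-term repair, against 5928, 2313, 2609, 81.7 and 29722 CPM in short-term repair. Short-term replicate 5 was the highest of the 10 libraries and short-term replicate 4 the lowest, so the groups overlapped through replicate 4. COL1A1 fell by 4.48 on the log2 scale (SE 0.89, adjusted p = 0.000203 by edgeR); the value was -2.91 without short-term replicate 5 and -4.73 without replicate 4. COL3A1, the chain of type III collagen, had 864, 243, 576, 363 and 336 CPM in long-term repair and 8149, 3161, 4284, 391 and 29516 CPM in short-term repair. Short-term replicate 4 lay within the long-term range and the other 4 above it. COL3A1 fell by 4.25 (SE 0.71, adjusted p = 2.31e-05 by edgeR). CTHRC1, a secreted protein of activated fibroblasts, had 1.41, 0.257, 0.430, 0.237 and 0.09 CPM in long-term repair, against 82.8, 17, 27.5, 0.836 and 151 CPM in short-term repair. Long-term replicate 1 was above short-term replicate 4 and below the other 4 short-term libraries. Its difference was -6.76 (SE 0.97, adjusted p = 3.02e-06 by edgeR). The collagen chaperone gene SERPINH1 (LOC100009353) did not overlap between the groups, with 84.9, 58.4, 91.8, 84 and 108 CPM in long-term repair and 331, 229, 220.1, 135 and 1589 CPM in short-term repair, and its difference of -2.55 (adjusted p = 2.19e-05 by edgeR) became -1.42 without short-term replicate 5.

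The provisional matrix genes of the same list were lower too. Periostin (POSTN) had 34.9, 8.67, 20.1, 28.4 and 12.1 CPM in long-term repair and 207, 352, 128, 5.26 and 986 CPM in short-term repair. Short-term replicate 4 was the lowest of the 10 libraries and replicate 5 the highest. POSTN fell by 4.01 (SE 0.97, adjusted p = 0.00139 by edgeR). Fibronectin (FN1) fell by 3.39 (adjusted p = 0.00017 by edgeR), or fell by 2.23 without short-term replicate 5, and the collagen cross-linking enzyme LOX fell by 3.47 (adjusted p = 0.000306). Tenascin C (TNC) had 11.3, 6.01, 16.6, 15.5 and 7.57 CPM in long-term repair, against 96.2, 47.6, 16.8, 1.96 and 946 CPM in short-term repair. Short-term replicate 5 held most of its counts: the difference of -4.28 (adjusted p = 0.000943 by edgeR) was -1.84 without that library and no longer called (adjusted p = 0.0557). Of the 29 calls in the list, 27 held whichever of the 10 repaired libraries was left out, and the median ran between -3.30 without short-term replicate 4 and -1.95 without short-term replicate 5. Within terms most members had a fitted difference above 0. These were 31 of 32 for repaired minus uninjured muscle in the long term (median 0.69). For repaired minus injury-only muscle in the short term, 32 of 32 were above 0 (median 2.01). For COL1A1 these differences were 1.47 (SE 0.65) and 4.14 (SE 0.97). Each shares 1 of its groups with the comparison between terms. In gel-treated muscle 29 of the 32 genes were lower in the long term, with a median of -2.16.

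Matrix proteases and their inhibitors were mostly lower as well. Of 20 tested, 17 were lower and 1 higher, with a median of -2.16 (-1.69 in the gel). The gelatinase MMP2 had 98.2, 53.6, 74.8, 147 and 63.7 CPM in long-term repair and 1759, 419, 297, 67.3 and 1119.8 CPM in short-term repair. The groups overlapped through short-term replicate 4. The values gave a difference of -3.07 (SE 0.55, adjusted p = 6.01e-05 by edgeR). ADAMTS2, which trims procollagen, fell by 2.87 (adjusted p = 2.24e-05 by edgeR) and the metalloproteinase MMP19 fell by 3.90 (adjusted p = 6.27e-05). The one member called higher was the inhibitor TIMP4, with 11.4, 3.86, 5.24, 4.89 and 2.52 CPM in long-term repair and 1.46, 3.83, 2.38, 2.42 and 1.00 CPM in short-term repair. Its difference of 1.34 (adjusted p = 0.0159 by edgeR) was not called without short-term replicate 5 (1.15, adjusted p = 0.0533) or without long-term replicate 1 (0.90, adjusted p = 0.1).

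Other stromal lists had medians nearer to 0. Of 14 markers of fibro-adipogenic progenitors, the collagen-making mesenchymal cells of muscle, 7 were lower and 0 higher (median -0.92, and -0.69 in the gel). Their receptor PDGFRA had 37.6, 17.6, 21.4, 17.5 and 13.6 CPM in long-term repair, against 158, 67.5, 54.4, 24.7 and 128 CPM in short-term repair. Short-term replicate 4 was below long-term replicate 1. PDGFRA fell by 2.00 (SE 0.39, adjusted p = 0.000172 by edgeR). The activation marker FAP fell by 2.90 (adjusted p = 8.48e-05 by edgeR) and the proteoglycan LUM fell by 3.85 (adjusted p = 6.32e-05). In long-term repair all 14 of these markers lay above uninjured muscle (median 0.56). The list's means overlapped, at 4.92 to 6.10 log2 CPM in long-term repair and 4.16 to 5.44 in uninjured muscle. Of 16 basement membrane genes 7 were lower, 0 were higher, and the median was -0.55 (-1.09 in the gel). Among them the laminin chain LAMB2 fell by 0.70 (adjusted p = 0.00277 by edgeR), COL18A1 (LOC103347362) fell by 1.91 (adjusted p = 0.00381) and COL4A3, a type IV collagen chain, fell by 1.46 (adjusted p = 0.00637). Of 21 TGF-beta pathway genes 9 were lower and 1 higher (median -0.35, and -0.14 in the gel), and without short-term replicate 5 the number lower was 3. Without long-term replicate 1 the median was -0.55. The matrix protein TGFBI, a target of the pathway, fell by 2.65 (adjusted p = 0.000172 by edgeR), or fell by 1.39 without short-term replicate 5. The latent binding protein gene LTBP1 fell by 2.10 (adjusted p = 0.000204 by edgeR), while the shared signal carrier SMAD4 rose by 0.67 (adjusted p = 0.000982).

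Tenocyte markers had a median whose sign turned with single libraries. Of 8 tested, 3 were lower and 0 higher, and the median of -0.25 (-1.86 in the gel) ran from -2.18 without long-term replicate 4 to 0.87 without short-term replicate 2, and was -0.47 without short-term replicate 4. In the fit without short-term replicate 5 the number lower was 1. The keratan sulphate proteoglycan KERA had 8.00, 0.515, 2.51, 24.3 and 7.93 CPM in long-term repair and 128, 98.7, 78.3, 8.53 and 58.1 CPM in short-term repair. Long-term replicate 4 was above short-term replicate 4. KERA fell by 3.10 (SE 0.76, adjusted p = 0.00156 by edgeR). All 8 markers lay above uninjured muscle in long-term repair, with a median difference of 2.11. The list's means were 3.36, 0.92, 2.79, 5.17 and 3.55 log2 CPM in long-term repair and 0.85 to 2.63 in uninjured muscle. Long-term replicate 2 thus lay within the uninjured range, and replicate 4 was the highest. The cartilage collagen COL2A1 had 23.8, 7.81, 21.3, 67.5 and 12.9 CPM in long-term repair, against 0.209, 0.604, 0.731, 0.084 and 0.953 CPM in short-term repair. Its groups did not overlap, and it rose by 5.64 (SE 0.61, adjusted p = 1.4e-08 by edgeR), with a difference of 1.57 (SE 0.41) against uninjured muscle in the long term.

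**Figure D2:**
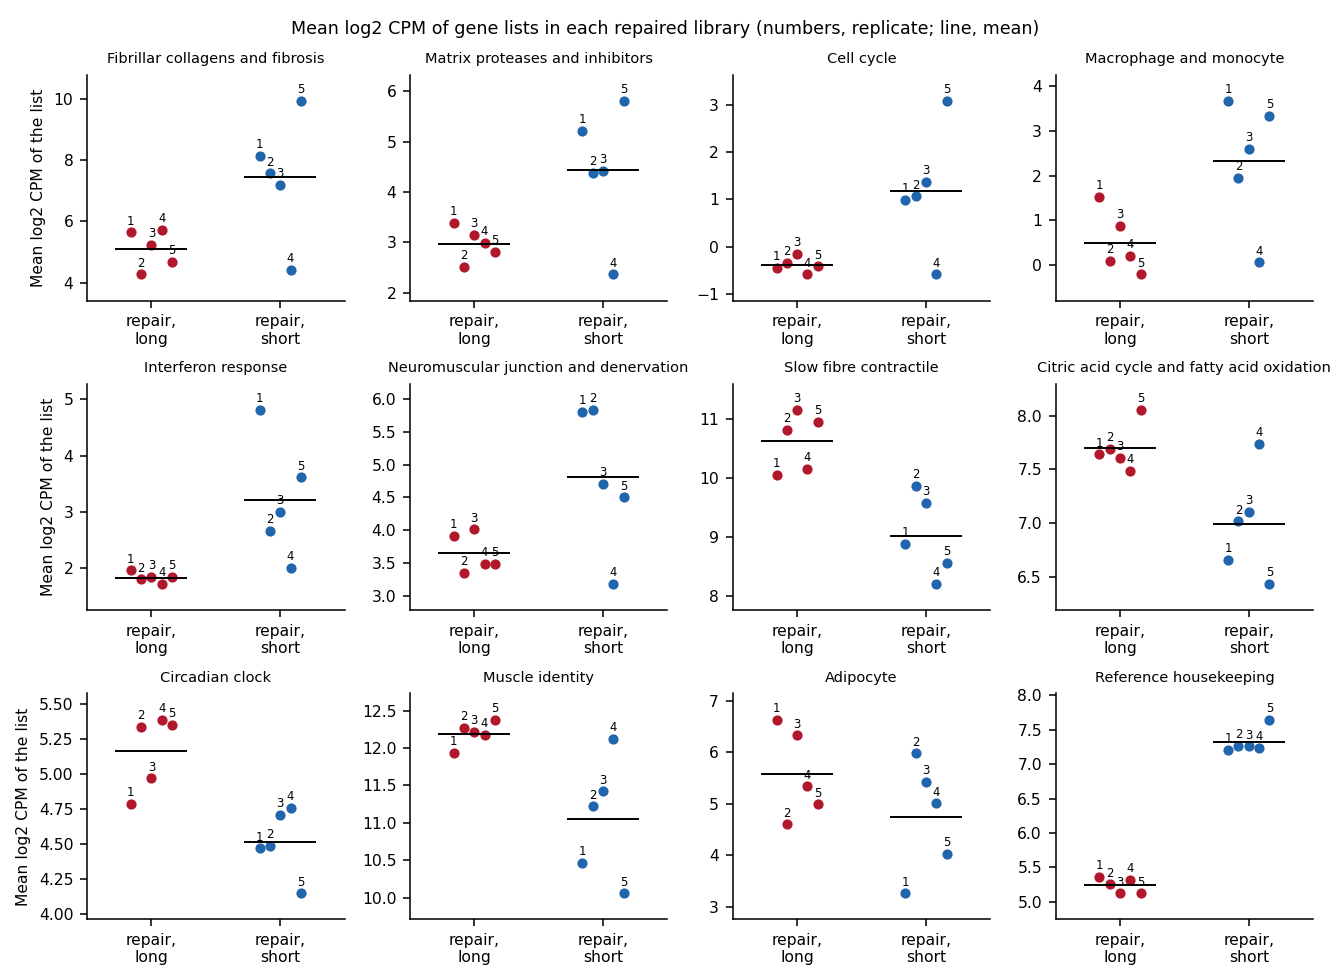
Mean log2 CPM of the tested genes of 12 lists in each repaired library, long term left and short term right; numbers are replicates and lines are means of 5 libraries. Short-term replicate 4 lies near the long-term libraries for collagen, protease, cell cycle and macrophage genes, and with the other short-term libraries for slow fibre and housekeeping genes.

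Proliferation genes were at low levels in long-term repair. Of 30 cell cycle genes tested, 24 were lower, 0 were higher, and the median was -2.72 (-2.69 in the gel), at the 4.3rd percentile. MKI67, the marker of dividing cells, had 0.336, 0.601, 0.717, 0.552 and 0.271 CPM in long-term repair, against 1.84, 3.22, 3.97, 0.167 and 12.3 CPM in short-term repair. Short-term replicate 4 was the lowest of all 10 libraries, and the other 4 short-term values were above every long-term one. The difference was -3.10 (SE 0.72, adjusted p = 0.000888 by edgeR). TYMS, which makes thymidylate for DNA synthesis, had 1.14, 0.429, 0.717, 0.552 and 0.631 CPM in long-term repair and 3.95, 3.70, 4.12, 3.59 and 6.89 CPM in short-term repair. Cyclin A2 (CCNA2) had 0.336, 0.687, 0.502, 0.473 and 0.271 CPM in long-term repair and 2.13, 2.82, 3.42, 3.09 and 4.76 CPM in short-term repair. In both genes the groups did not overlap, short-term replicate 4 included; TYMS fell by 2.66 (adjusted p = 1.84e-07 by edgeR) and CCNA2 fell by 2.82 (adjusted p = 1.97e-06). The replication clamp PCNA fell by 0.98 (adjusted p = 3.58e-06 by edgeR) and topoisomerase TOP2A fell by 2.88 (adjusted p = 0.000714). Of the 24 calls, 17 held whichever library was left out, and the median was -1.72 without short-term replicate 5. The list's median against uninjured muscle in the long term was 0.04, with 16 of 30 genes above 0, and against injury-only muscle in the short term it was 2.24, with 28 of 30 above 0. Its short-term means overlapped, at -0.59 to 3.08 log2 CPM in repair, lowest in replicate 4, and -0.42 to 0.54 in injury-only muscle.

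Macrophage markers were mostly lower in long-term repair. Of 15 macrophage and monocyte genes tested, out of 21 listed, 11 were lower and 1 higher, with a median of -2.64 (-3.13 in the gel). The scavenger receptor CD163 had 3.09, 0.858, 0.861, 0.473 and 0.451 CPM in long-term repair, against 34.9, 2.52, 6.45, 0.501 and 11.2 CPM in short-term repair. Long-term replicate 1 was above short-term replicates 2 and 4. CD163 fell by 3.25 (SE 0.77, adjusted p = 0.00116 by edgeR), or fell by 2.15 without short-term replicate 1, the library with the most CD163. CSF1R, the growth factor receptor of macrophages, had 15.4, 3.95, 7.17, 6.00 and 2.52 CPM in long-term repair and 50.7, 19.8, 29.6, 3.22 and 49.4 CPM in short-term repair. Short-term replicate 4 lay within the long-term range. CSF1R had a difference of -2.12 (SE 0.61, adjusted p = 0.00544 by edgeR). The endotoxin co-receptor CD14 fell by 3.36 (adjusted p = 3.6e-05 by edgeR), the signalling adaptor TYROBP fell by 3.86 (adjusted p = 7.61e-05) and the lysosomal protein CD68 fell by 2.19 (adjusted p = 0.00118). The chemokine receptor CX3CR1 was the member called higher, with 6.59, 1.80, 1.36, 3.16 and 2.07 CPM in long-term repair and 2.00, 1.16, 1.15, 2.17 and 0.538 CPM in short-term repair. Its difference of 1.10 (adjusted p = 0.0265 by edgeR) was not called without long-term replicate 1, at 0.58 (adjusted p = 0.227), or without short-term replicate 2, at 1.04 (adjusted p = 0.0549), replicate 3, at 1.04 (adjusted p = 0.0542), or replicate 5, at 0.89 (adjusted p = 0.0833). All 15 genes lay above uninjured muscle in long-term repair (median 1.01). The list's means overlapped, at 1.53, 0.10, 0.87, 0.20 and -0.21 log2 CPM in long-term repair and -1.06 to 0.33 in uninjured muscle.

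Among 10 genes of lipid-handling macrophages 5 were lower and 1, the lipase LPL, higher (median -1.06, and -1.48 in the gel), with 3 lower without short-term replicate 1. The lipid receptor TREM2 (LOC100348748) had 0.673, 0.086, 1.36, 0.394 and 0.180 CPM in long-term repair and 9.96, 2.77, 4.33, 0.752 and 18.1 CPM in short-term repair. Long-term replicate 3 was above short-term replicate 4. TREM2 fell by 3.68 (SE 0.90, adjusted p = 0.00154 by edgeR). Galectin 3 (LGALS3) fell by 2.10 (adjusted p = 0.000414 by edgeR) and the lipoprotein APOE fell by 1.71 (adjusted p = 0.00451). Osteopontin (SPP1) was not called, at -0.97 (SE 0.82, adjusted p = 0.337 by edgeR), with 4.51, 0.772, 4.38, 14.7 and 1.26 CPM in long-term repair and 18.5, 21.9, 5.06, 0.752 and 4.08 CPM in short-term repair. Long-term replicate 4 was above 3 of the short-term libraries. The difference was -1.86 without long-term replicate 4, -0.64 without short-term replicate 1 and -0.48 without short-term replicate 2, and not called in any of these.

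Interferon-stimulated genes were lower as well: 15 of 19, with 0 higher and a median of -1.53 (-2.40 in the gel). MX1, an antiviral GTPase, had 17, 7.64, 9.25, 9.07 and 11.8 CPM in long-term repair, against 229, 34, 51.8, 21.5 and 71.9 CPM in short-term repair. IRF9, a subunit of the interferon-activated transcription factor, had 16, 12.6, 17.3, 12.7 and 11.6 CPM in long-term repair and 57.4, 21.4, 30.9, 21.9 and 37.2 CPM in short-term repair. Neither overlapped between the groups. MX1 fell by 2.89 (SE 0.58, adjusted p = 0.000208 by edgeR) and IRF9 fell by 1.26 (SE 0.23, adjusted p = 6.52e-05). Short-term replicate 1 had the highest mean over the list, and without it 7 genes were lower, with a median of -1.11. Of these genes, 16 of 19 lay below uninjured muscle in long-term repair, at a median of -0.19, and 18 of 19 lay above injury-only muscle in the short term (median 0.93). The list's means were 1.71 to 1.95 log2 CPM in long-term repair. In uninjured muscle replicate 10 stood apart at 2.99, and the other libraries had 1.69 to 2.01, around the long-term repair range. The fit without that library was not made. In the short term the means overlapped, at 1.99 to 4.81 in repair and 2.11 to 2.74 in injury-only muscle. Lymphocyte genes were scarce, and 7 of 18 listed could be tested. Of these 2 were lower, near the 27.8% of all genes, and neither call held in all 10 fits that left out a library. Of 12 neutrophil and mast cell genes 3 could be tested, with 1 lower. Among 8 inflammatory cytokine and enzyme genes, 3 were lower and 1 higher, with a median of -0.41 (-0.07 in the gel) that became 0.22 without short-term replicate 5. Without short-term replicate 1, the number lower was 1 and the median -0.20. The cytokine genes IL1A, IL1B, IL6 and TNF did not pass the filter on low counts; IL6 had 0 counts over the 5 long-term libraries, against 367 over the 5 short-term libraries.

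**Figure D3:**
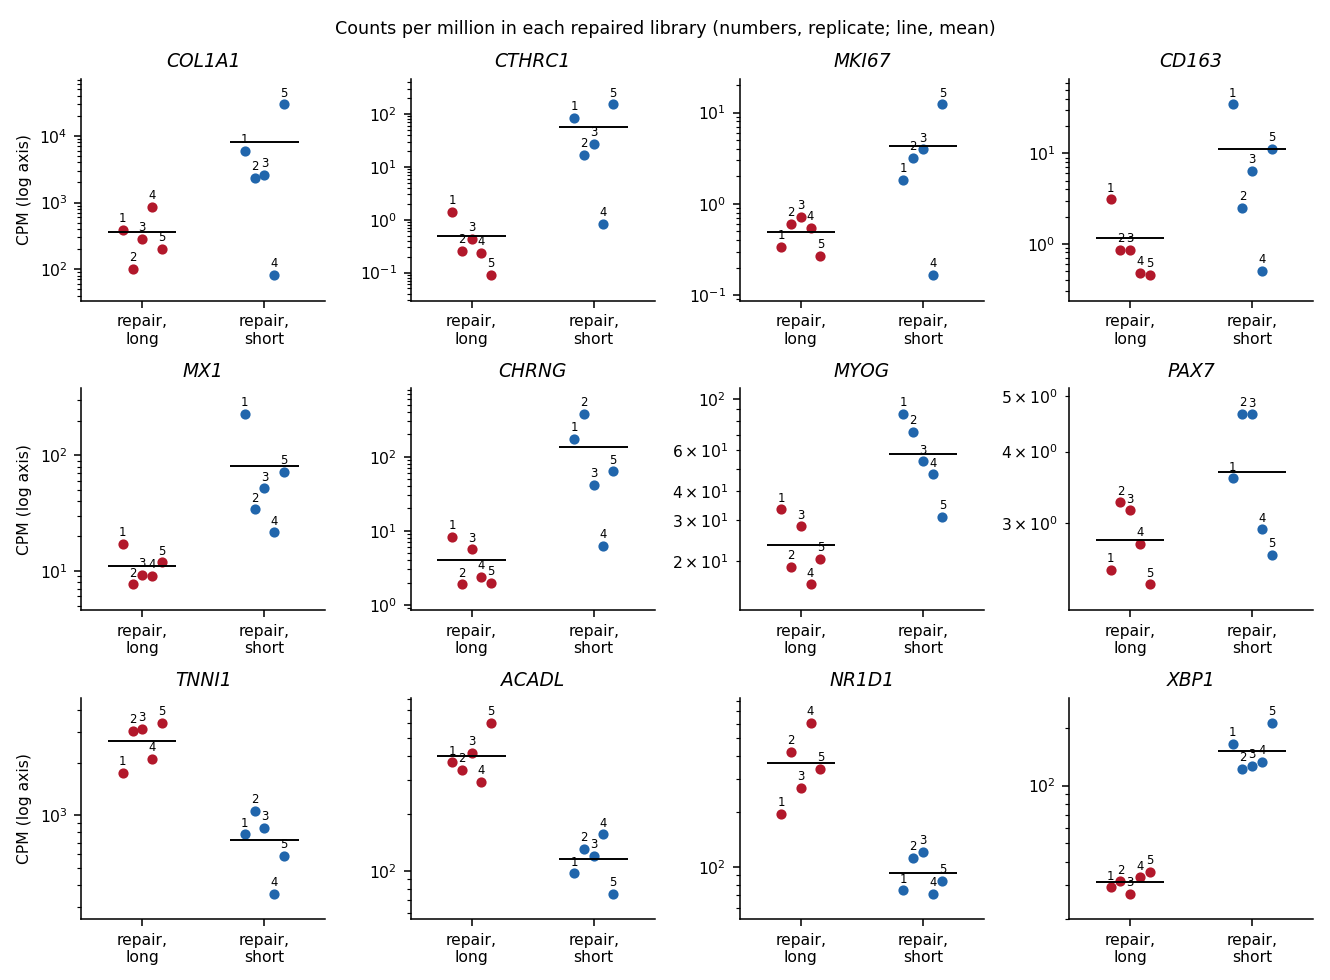
CPM, on a log axis, of 12 genes in each repaired library, long term left and short term right; numbers are replicates and lines are means of 5 libraries. COL1A1, CTHRC1 and MKI67 overlap through short-term replicate 4 alone and CD163 through replicates 2 and 4, while MX1, TNNI1, ACADL, NR1D1 and XBP1 do not overlap.

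Of 19 genes of the neuromuscular junction and denervation, 11 were lower and 2 higher, with a median of -1.16 (-1.04 in the gel). The number higher was 4 without short-term replicate 2 and 1 without short-term replicate 5. CHRNG, the fetal gamma subunit of the acetylcholine receptor, had 8.21, 1.89, 5.59, 2.37 and 1.98 CPM in long-term repair, against 176, 379, 42.1, 6.23 and 63.1 CPM in short-term repair. Short-term replicates 1 and 2 were highest and replicate 4 was within the long-term range. CHRNG fell by 5.04 (SE 1.16, adjusted p = 0.000865 by edgeR). CHRNE, the adult epsilon subunit, fell by 2.55 (SE 0.48, adjusted p = 0.000114 by edgeR), with 6.59, 7.04, 3.59, 1.97 and 3.07 CPM in long-term repair and 37.8, 17.5, 20.4, 7.77 and 46.7 CPM in short-term repair and no overlap. The shared alpha subunit CHRNA1 fell by 2.06 (adjusted p = 0.00427 by edgeR). RUNX1, a transcription factor of denervated fibres, had 1.48, 0.601, 1.86, 2.52 and 0.992 CPM in long-term repair and 24.6, 18.3, 7.91, 1.75 and 58.4 CPM in short-term repair. Short-term replicate 4 lay within the long-term range. RUNX1 fell by 3.88 (SE 0.67, adjusted p = 3.43e-05 by edgeR). LRP4, the agrin receptor at the junction, rose by 1.26 (adjusted p = 0.00501 by edgeR). The list's median was 0.08 against uninjured muscle in the long term and 1.25 against injury-only muscle in the short term. Among 13 Schwann cell and myelin genes, 5 were higher and 2 lower (median 0.81, and 0.64 in the gel), and the number higher was 2 without short-term replicate 5 and 7 without replicate 4. The adhesion gene CDH19 rose by 2.86 (adjusted p = 0.00116 by edgeR) and NCAM1, which denervated fibres also carry, fell by 2.28 (adjusted p = 0.00133).

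Regulators of myogenesis gave calls in both directions. Of 13 tested, 4 were higher and 2 lower. These 6 calls were near the 45.8% of all genes called in either direction. The median was 0.09 (0.51 in the gel), or -0.26 with library totals alone as the scaling. It ran from 0.02 without short-term replicate 5 to 0.21 without replicate 4. PAX7, the marker of satellite cells, was not called, with 2.49, 3.26, 3.16, 2.76 and 2.34 CPM in long-term repair and 3.59, 4.66, 4.65, 2.92 and 2.64 CPM in short-term repair and a difference of -0.40 (SE 0.39, adjusted p = 0.418 by edgeR). MYOG, which drives terminal differentiation, had 33.4, 18.9, 28.2, 15.9 and 20.4 CPM in long-term repair, against 86.1, 71.9, 53.7, 47.2 and 30.9 CPM in short-term repair. Long-term replicate 1 was above short-term replicate 5, the only overlap. MYOG fell by 1.31 (SE 0.25, adjusted p = 0.000128 by edgeR). The commitment factor MYOD1 fell by 1.25 (adjusted p = 0.00995 by edgeR), a call lost without short-term replicate 2 (-0.63, adjusted p = 0.137). MEF2D, a factor of mature muscle genes, rose by 1.61 (SE 0.22, adjusted p = 1.35e-06 by edgeR), and its groups did not overlap, with 416, 507, 491, 481 and 530.3 CPM in long-term repair and 155, 157, 141, 254 and 85.8 CPM in short-term repair. The fusion peptide gene MYMX (LOC108177367) had 1 count in all 5 long-term libraries together, against 276 in the 5 short-term libraries (adjusted p = 0.00126 by edgeR).

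The developmental sarcomere list also holds the fusion peptide gene MYMX, which is not a sarcomere gene. Among its 9 genes 2 were higher and 2, MYMX and MYL4, lower (median 0.87, and -2.24 in the gel). These 4 calls were near the 45.8% of all genes called in either direction. The median was 0.56 without long-term replicate 5 and 1.31 without short-term replicate 2, with 3 genes higher and 1 lower in the fit without replicate 2. MYL4, the embryonic light chain, had 3.83, 1.29, 1.94, 2.68 and 0.541 CPM in long-term repair and 34.8, 148, 5.90, 0.919 and 15.7 CPM in short-term repair. Short-term replicate 2 was far the highest, and the difference of -4.29 (adjusted p = 0.0192 by edgeR) was -2.78 and not called without it (adjusted p = 0.11). Embryonic myosin MYH3 was not called: 215, 139.96, 382, 315 and 246 CPM in long-term repair and 156, 234, 30.1, 29.8 and 25.1 CPM in short-term repair, with a difference of 1.45 (SE 0.70, adjusted p = 0.0899 by edgeR), but called without short-term replicate 2 (2.11, adjusted p = 0.0246). In gel-treated muscle MYH3 had a difference of -2.24 (SE 0.72, adjusted p = 0.0112), and 4 of the 9 genes were lower and 1 higher there. The repair difference of MYH3 minus its gel difference was 3.69 (SE 1.01, adjusted p = 0.213 by edgeR). NRAP, an actin-anchoring protein of the fibre ends, rose by 1.79 (SE 0.28, adjusted p = 1.07e-05 by edgeR).

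Slow fibre genes had the highest median of the 35 lists. Of 11 tested, 7 were higher and 0 lower, with a median of 1.54 at the 97.4th percentile; without short-term replicate 5, 3 were higher. Slow troponin I (TNNI1) had 1753, 3019, 3102, 2099 and 3346 CPM in long-term repair, against 779, 1065, 847, 358 and 589 CPM in short-term repair. The slow calcium pump ATP2A2 had 1323, 2631, 3314, 1849 and 2781 CPM in long-term repair and 977, 909, 973, 266 and 399 CPM in short-term repair. Both sets of values were separate, and short-term replicate 4 was the lowest in each gene. TNNI1 rose by 1.87 (SE 0.46, adjusted p = 0.00167 by edgeR), ATP2A2 by 1.76 (SE 0.49, adjusted p = 0.00448) and the slow myosin-binding protein MYBPC1 by 1.94 (SE 0.31, adjusted p = 1.19e-05). In gel-treated muscle the list's median was 0.67, with 1 gene higher and 1 lower. Against muscle of the same term, 10 of 11 genes lay below uninjured muscle in the long term (median -0.48) and 11 of 11 below injury-only muscle in the short term (median -1.69). The list's means in long-term repair, 10.06 to 11.15 log2 CPM, lay within the uninjured range of 9.52 to 12.10. Those of short-term repair, 8.21 to 9.87, lay below those of injury-only muscle, 10.02 to 11.15.

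Of 12 fast fibre genes 2 were higher and 1 lower (median 0.51, and 0.50 in the gel). Without short-term replicate 4, 8 were higher and 0 lower, with a median of 1.26, and the median was 0.30 without replicate 1, with 1 gene higher, and 0.32 without replicate 5. The one lower was the fastest myosin MYH4, with 286, 193, 134, 146 and 164 CPM in long-term repair and 61.3, 301, 1993, 24420.5 and 245 CPM in short-term repair. Replicate 4 alone held 24420.5 CPM, and without it the difference of -4.87 (adjusted p = 0.000855 by edgeR) was -1.76 and not called (adjusted p = 0.0624). MYH13, a myosin known from eye muscles, rose by 4.52 (SE 0.47, adjusted p = 6.68e-09 by edgeR), with 427, 518, 435, 700.2 and 536 CPM in long-term repair and 27.5, 32.3, 18.9, 24.9 and 10.6 CPM in short-term repair. Its difference was 0.15 against uninjured muscle in the long term and 0.11 against injury-only muscle in the short term. Myosins share long stretches of sequence, and the sources used here do not say how multi-mapped reads were counted, so the values of single myosin genes are uncertain. Among 14 calcium handling genes 5 were higher and 0 lower (median 0.79, and 0.69 in the gel), and 11 were higher without short-term replicate 4 (median 1.35) and 3 without replicate 1. Junctophilin 2 (JPH2) rose by 1.30 (adjusted p = 0.0033 by edgeR) and triadin (TRDN), which anchors the calcium release complex, by 1.06 (adjusted p = 0.00924).

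Genes of mitochondrial fuel use were mostly higher in long-term repair. Of 30 genes of the citric acid cycle and fatty acid oxidation, 18 were higher and 3 lower, with a median of 0.87 at the 89.8th percentile, and of 0.55 in the gel. Without short-term replicate 4, 24 were higher and 2 lower (median 1.22). The long-chain acyl-CoA dehydrogenase ACADL had 371, 338, 415, 294 and 597 CPM in long-term repair, against 96.8, 129.9, 119.6, 155 and 75.6 CPM in short-term repair. Pyruvate dehydrogenase PDHA1 had 321, 371, 317, 359.8 and 395 CPM in long-term repair and 108, 148, 135, 195 and 76.6 CPM in short-term repair. In neither did the groups overlap; ACADL rose by 1.80 (SE 0.24, adjusted p = 7.65e-07 by edgeR), PDHA1 by 1.41 (SE 0.20, adjusted p = 2.38e-06) and the electron carrier ETFDH by 1.38 (adjusted p = 3.02e-06). The list holds exceptions to its direction. Fumarate hydratase FH had 9.68, 11.3, 8.68, 10.5 and 10.2 CPM in long-term repair and 66.6, 93.9, 107, 173 and 51.5 CPM in short-term repair and fell by 3.29 (SE 0.28, adjusted p = 1.17e-10 by edgeR), HADHB, a subunit of the trifunctional protein, fell by 1.44 (adjusted p = 0.000373) and citrate synthase CS fell by 0.61 (adjusted p = 0.0129). Without short-term replicate 4 the difference of CS was -0.30 and not called (adjusted p = 0.173). Within terms FH differed by -0.16 from uninjured muscle and by -0.55 from injury-only muscle, and in the gel its difference between terms was -3.73.

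Of 32 oxidative phosphorylation genes 15 were higher and 3 lower (median 0.48), and 22 higher and 3 lower without short-term replicate 4 (median 0.95). In the gel the median was 0.05, with 10 of the genes called higher and 5 lower. NDUFS1, a core subunit of complex I, rose by 1.44 (SE 0.25, adjusted p = 4.66e-05 by edgeR), UQCRB (LOC100337966) of complex III by 1.42 (adjusted p = 5.48e-05) and COX7A2 (LOC103349801) of complex IV by 2.53 (adjusted p = 5e-11). SDHD of complex II fell by 2.21 (adjusted p = 1e-08 by edgeR), COX6C (LOC100340645) fell by 3.42 (adjusted p = 8.46e-05) and NDUFA4 fell by 1.12 (adjusted p = 0.000209). The coactivator PPARGC1A, a regulator of mitochondrial genes, had 26.4, 50.3, 27.5, 92.9 and 36.3 CPM in long-term repair, against 12.6, 13.4, 13.8, 11.7 and 3.45 CPM in short-term repair, and rose by 2.09 (SE 0.44, adjusted p = 0.000399 by edgeR). Glycolytic and glycogen genes gave 3 higher and 5 lower of 25, with a median near 0 (-0.02, and 0.17 in the gel) that was 0.66 without short-term replicate 4, where 7 were higher; without replicate 1, 1 was higher, at a median of -0.26. The glycogen branching enzyme GBE1 rose by 1.95 (adjusted p = 7.51e-05 by edgeR) and enolase ENO1 fell by 1.21 (adjusted p = 0.000171). The lowest value of the list, -7.58, was that of PGK1, and GAPDH, also a glycolytic enzyme, fell by 4.71. Both are given below with the reference genes and the largest falls, where limits of their counts are named.

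Of 13 adipocyte genes tested, out of 19 listed, 4 were higher and 0 lower (median 0.58). The median was 0.23 without long-term replicate 1, 0.37 without long-term replicate 3 and 0.88 without short-term replicate 2, and in the gel it was 0.05, with 1 gene called higher and 1 lower. The lipoprotein lipase LPL had 767, 512, 1088, 555 and 906 CPM in long-term repair, against 139, 477, 285, 282 and 59.7 CPM in short-term repair. The fatty acid transporter CD36 had 403, 201, 349, 164 and 338 CPM in long-term repair and 47.3, 151, 98.1, 134 and 69.8 CPM in short-term repair. Neither overlapped; LPL rose by 1.62 (SE 0.49, adjusted p = 0.00812 by edgeR), CD36 by 1.54 (SE 0.36, adjusted p = 0.00109) and the glycerolipid enzyme GPAM by 1.05 (adjusted p = 0.00158). Muscle fibres also use these 3 genes. The defining markers of fat cells ADIPOQ, PPARG, FABP4, LEP, CIDEA and CIDEC were not called. The list's means overlapped between the groups, at 4.60 to 6.64 log2 CPM in long-term repair and 3.26 to 5.98 in short-term repair. Within terms the values ran in opposite directions: 13 of 13 genes lay above uninjured muscle in the long term (median 1.31) and 13 of 13 below injury-only muscle in the short term (median -1.67). List means were 4.12 to 4.94 log2 CPM in uninjured muscle and 5.45 to 7.41 in injury-only muscle, so both overlapped with repaired muscle of their term.

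Core clock genes gave 9 higher and 0 lower of 16, with a median of 0.59 (0.94 in the gel), and 11 higher and 1 lower without short-term replicate 4 (median 0.84). The repressor NR1D1 had 195, 422, 269, 604 and 342 CPM in long-term repair and 74.6, 112, 121, 71.5 and 84.2 CPM in short-term repair, with no overlap, and rose by 1.99 (SE 0.34, adjusted p = 3.96e-05 by edgeR). CLOCK rose by 0.85 (adjusted p = 0.000576 by edgeR) and the repressor BHLHE41 by 1.47 (adjusted p = 0.00126). The labels give no hours of sampling. Among 15 atrophy genes (median 0.34, 0.53 without short-term replicate 4, and 0.79 in the gel) 6 were higher and 1, EIF4EBP1 (-0.86, adjusted p = 0.0033 by edgeR), lower, and without short-term replicate 2 the number higher was 3, and without long-term replicate 5 the number lower was 2. FOXO3, which switches on atrophy ligases, rose by 0.73 (adjusted p = 0.000143 by edgeR) and FOXO4 by 1.00 (adjusted p = 0.00251), while the ligase FBXO32 was not called (0.51, SE 0.41, adjusted p = 0.32). The muscle methyltransferase METTL21C was not called either (2.14, SE 0.96, adjusted p = 0.0665 by edgeR), with 6.66, 141, 16.5, 14.6 and 20.7 CPM in long-term repair and 2.63, 24.2, 5.79, 2.88 and 9.51 CPM in short-term repair. Its difference was 0.69 without long-term replicate 2 (adjusted p = 0.564 by edgeR), and it was called without short-term replicate 2 (2.93, adjusted p = 0.0261) and without long-term replicate 1 (2.41, adjusted p = 0.0453).

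Vessel genes moved in both directions. Of 12 endothelial genes 5 were higher and 2 lower (median 0.34, 0.24 in the gel, or -0.01 with library totals alone). The receptor FLT1 rose by 0.93 (SE 0.23, adjusted p = 0.00168 by edgeR) and the junction cadherin CDH5 by 0.57 (SE 0.16, adjusted p = 0.00408). PLVAP, a protein of fenestrated and new vessels, fell by 2.11 (SE 0.43, adjusted p = 0.000281 by edgeR) and VWF fell by 1.09 (adjusted p = 0.00477). Of 12 pericyte and smooth muscle genes 4 were higher and 4 lower (median -0.28, and -0.41 in the gel), with 2 lower without short-term replicate 5. The median was -0.14 without short-term replicate 1 and -0.15 without replicate 5. Smooth muscle myosin MYH11 rose by 1.02 (adjusted p = 0.00368 by edgeR). TAGLN, a contractile protein of smooth muscle and myofibroblasts, had 5.51, 3.60, 4.73, 8.6 and 3.97 CPM in long-term repair, against 35.4, 49.6, 41.8, 15.7 and 549.98 CPM in short-term repair. Short-term replicate 5 stood above the others: the difference of -4.71 (SE 0.71, adjusted p = 5.82e-06 by edgeR) was -2.75 without it (adjusted p = 2e-05). Smooth muscle actin ACTA2 had 1002.5 CPM in the same library and -2.49 as its difference (adjusted p = 0.0112 by edgeR), but -0.38 without it, not called (adjusted p = 0.65). Of 14 immediate early genes 2 were lower and 0 higher; IER3 fell by 2.75 (adjusted p = 0.000808 by edgeR) and was not called without short-term replicate 5 (-0.58, adjusted p = 0.183). Of 3 erythroid genes tested 1 was lower, and 0 were without short-term replicate 4.

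Of 16 unfolded protein response genes 2 were higher and 7 lower (median -0.18, and 0.15 in the gel), and the median was -0.30 without short-term replicate 1 and -0.11 without replicate 5. The sensor ATF6 rose by 0.59 (adjusted p = 0.00227 by edgeR) and the secreted factor MANF fell by 1.47 (adjusted p = 6.52e-05). Of 25 proteasome genes 2 were higher and 10 lower (median -0.29, and -0.19 in the gel), with 5 higher without short-term replicate 4 (median -0.19), and of 12 translation factors 0 higher and 7 lower (median -1.24, and -1.01 in the gel). The elongation factor EEF1G had 26.2, 46, 23.8, 28.4 and 39 CPM in long-term repair and 631, 647, 668, 756 and 582 CPM in short-term repair, and fell by 4.33 (SE 0.24, adjusted p = 4.16e-15 by edgeR). The initiation factor EIF4A2 fell by 3.29 (adjusted p = 6.28e-13 by edgeR). Of 13 genes often used as references for normalization, 8 were lower and 2 higher (median -1.42). Glyceraldehyde-3-phosphate dehydrogenase GAPDH had 252, 299.8, 31.6, 265 and 40.6 CPM in long-term repair, against 2429.8, 2124, 3716, 12427 and 2549.7 CPM in short-term repair. Cyclophilin PPIA had 15.3, 8.24, 10.5, 11 and 8.12 CPM in long-term repair and 213, 287, 230.1, 51 and 606 CPM in short-term repair. Neither overlapped. GAPDH fell by 4.71 (adjusted p = 5.11e-06 by edgeR) and PPIA fell by 4.70 (adjusted p = 3.33e-08), while SDHA of complex II rose by 1.34 (adjusted p = 0.000733). The median of the reference genes was -0.04 against uninjured muscle in the long term and 0.14 against injury-only muscle in the short term, and -1.41 between terms in the gel.

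Among genes that did not overlap and had a mean log2 CPM of at least 1 over the 10 libraries, the largest falls were in NPM1, PGK1, TUBA1B, COX7B (LOC100342996), EEF1A1, MYBPH, ERH and LRRC17. The nucleolar protein gene NPM1 had 0.269, 0.086, 0.502, 0.631 and 0.361 CPM in long-term repair, against 136, 133, 129, 115 and 203 CPM in short-term repair. The glycolytic enzyme PGK1 had 4.71, 6.18, 3.08, 4.02 and 4.42 CPM in long-term repair and 275, 543, 786, 2225 and 459 CPM in short-term repair. The elongation factor EEF1A1 had 33.6, 14.1, 23.5, 18.9 and 18.7 CPM in long-term repair and 3637, 2543, 1453, 598 and 3496 CPM in short-term repair. In each gene every long-term value was below every short-term one. The differences were -8.56 (SE 0.44, adjusted p = 5.65e-16 by edgeR) for NPM1, -7.58 (SE 0.60, adjusted p = 1.68e-11) for PGK1 and -6.75 (SE 0.60, adjusted p = 2.56e-10) for EEF1A1. In the gel-treated muscles the same genes differed by -8.51, -7.50 and -6.77. Within the long term they differed from uninjured muscle by -0.16, 0.08 and -0.17, and within the short term from injury-only muscle by 0.21, -1.14 and 0.44. NPM1, PGK1, TUBA1B and EEF1A1 have near-identical copies in mammalian genomes, so their counts can depend on how shared reads were treated, which was not tested. Copies were not examined here, so the same limit can hold for other named genes, GAPDH and PPIA included. LRRC17, a secreted leucine-rich repeat protein, had 0.740, 0.772, 0.717, 0.473 and 0.271 CPM in long-term repair and 27.6, 10.6, 21.6, 0.961 and 41.4 CPM in short-term repair, and its difference from injury-only muscle in the short term was 2.18. MYBPH, a myosin-binding protein, fell by 5.46 (adjusted p = 0.00111 by edgeR) and differed by -2.25 from uninjured muscle in the long term.

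By the same limits, the largest rises included those of MYL10, COL2A1, SLC24A2, DDN, MYH13, PDK4 and SLC16A7. The myosin light chain gene MYL10 had 127, 157, 60.3, 89 and 109 CPM in long-term repair and 0, 0.151, 0.313, 0 and 0 CPM in short-term repair, or 6905 counts against 18 over 5 libraries each (adjusted p = 3.3e-09 by edgeR). PDK4, the kinase that turns pyruvate dehydrogenase off during fat use, had 789.5, 661, 835, 821 and 3206 CPM in long-term repair, against 199.95, 13.1, 18.8, 99.7 and 122 CPM in short-term repair. Long-term replicate 5 was far the highest, and the groups did not overlap. PDK4 rose by 3.80 (SE 0.76, adjusted p = 0.000202 by edgeR). Its gel difference was 3.48 (SE 0.75), and in the long term its difference from uninjured muscle was 0.19. The monocarboxylate transporter SLC16A7 had 33.2, 44.9, 104, 39.1 and 45.5 CPM in long-term repair and 8.39, 4.20, 2.77, 3.84 and 1.64 CPM in short-term repair, and rose by 3.67 (adjusted p = 7.64e-05 by edgeR). Of the 414 genes called lower by 3 or more on the log2 scale, 12.08% differed by at most 0.5 in both comparisons within a term, and of the 84 called higher by as much, 28.57%, against 60.97% of all genes. Each comparison within a term shares a group of libraries with the comparison that chose these genes. The shares are therefore not independent of how the genes were chosen, and no conclusion is drawn from the lower shares.

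**Figure D4:**
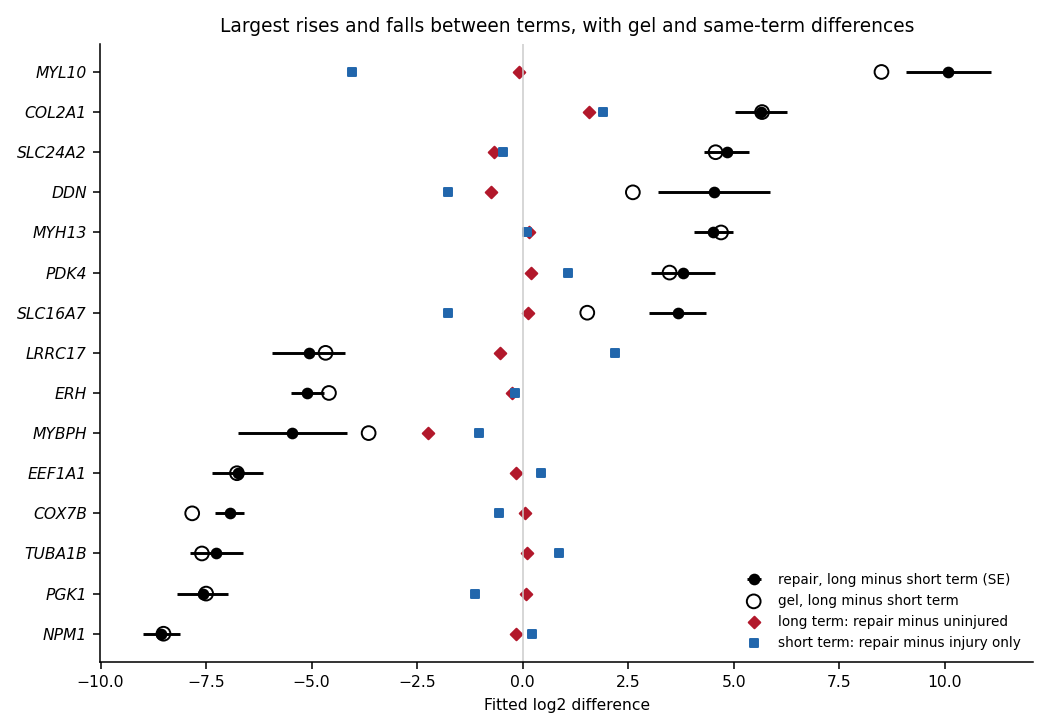
The 8 largest falls and 7 of the 8 largest rises between terms in repaired muscle (filled circles, with SE), with the gel difference between terms (open circles) and the differences within the long term (diamonds) and the short term (squares). NPM1, TUBA1B, COX7B, EEF1A1, ERH, MYH13 and SLC24A2 lie far from 0 between terms in both repair and gel and within 1 of 0 inside each term.

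The difference between terms was then compared between repair and gel, gene by gene. In 1 gene the difference was higher in repair and in 1 it was lower (0.00776% of genes each way, 0.0155% in all), and 2 calls came from 12882 genes by edgeR against 28 by DESeq2. XBP1, which switches on chaperone genes under endoplasmic reticulum stress, had 29.3, 31.5, 27.1, 33.1 and 35.4 CPM in long-term repair, against 165, 123, 126, 134 and 212 CPM in short-term repair. Every long-term value was below every short-term one, and XBP1 fell by 2.28 (SE 0.21, adjusted p = 6.21e-10 by edgeR). In the gel it averaged 70.2 ± 24.1 CPM in the long term and 92.5 ± 9.35 CPM in the short term (SD, n = 5 each), a difference of -0.40 (SE 0.20, adjusted p = 0.102 by edgeR). The repair difference minus the gel difference was -1.88 (SE 0.29, adjusted p = 0.0015 by edgeR). ATXN7L2, a gene related to a subunit of the SAGA coactivator, averaged 10.2 ± 2.21 CPM in long-term repair and 11.1 ± 4.52 CPM in short-term repair, a difference of -0.12 (SE 0.22, adjusted p = 0.678 by edgeR). In the gel it averaged 9.12 ± 0.758 CPM in the long term and 42.9 ± 15.9 CPM in the short term (SD, n = 5 each), so that repair minus gel was 2.12 (SE 0.31, adjusted p = 0.00142 by edgeR).

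Ratios of 2 genes counted in the same library do not depend on its scaling. For 16 pairs the log2 ratio was compared between 5 long-term and 5 short-term repairs by a two-sided exact permutation test, which can give no p below 0.00794. After adjustment over the 16 pairs 0 passed, and 6 had an unadjusted p under 0.05, each with an adjusted p of 0.0762 or 0.127. LDHA over LDHB, the muscle over the heart form of lactate dehydrogenase, was 0.22, 0.95, 0.38, 2.12 and 1.92 in long-term repair, against 2.07, 2.24, 3.66, 4.00 and 2.69 in short-term repair. The mean difference was -1.81 (exact permutation p = 0.0159, adjusted p = 0.0762), and long-term replicate 4 lay within the short-term range. CPT1B, the gate of fatty acid entry to mitochondria, over PFKM, the muscle phosphofructokinase, was -3.30, -3.98, -2.93, -4.79 and -3.56 in long-term repair and -4.53, -5.00, -5.76, -5.28 and -5.24 in short-term repair. Its mean was higher by 1.45 (exact permutation p = 0.0159, adjusted p = 0.0762). MMP2 over its inhibitor TIMP2 was -0.12, -0.16, -0.20, 0.15 and -0.11 in long-term repair and 2.41, 0.81, 0.68, 0.08 and 1.29 in short-term repair. The long-term ratios spanned less than the short-term ones, and the mean difference was -1.15 (exact permutation p = 0.0159, adjusted p = 0.0762).

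MMP14 over TIMP3 differed by -2.27 (exact permutation p = 0.0476, adjusted p = 0.127), MYOG over PAX7 by -0.92 (exact permutation p = 0.0238, adjusted p = 0.0762) and COL1A1 over COL1A2, the 2 chains of type I collagen, by 0.66 (exact permutation p = 0.0238, adjusted p = 0.0762). CHRNG over CHRNE, the fetal over the adult receptor subunit, was 0.31, -1.87, 0.64, 0.26 and -0.62 in long-term repair and 2.22, 4.43, 1.04, -0.32 and 0.43 in short-term repair. The groups overlapped, and the mean difference of -1.82 did not pass (exact permutation p = 0.0873, adjusted p = 0.175); in uninjured muscle the ratio averaged -0.74 ± 1.83 (SD, n = 10). COL1A1 over COL3A1 was -0.59 ± 1.04 in long-term repair and -0.78 ± 0.87 in short-term repair (SD, n = 5 each; exact permutation p = 0.794, adjusted p = 0.847). The remaining 8 pairs had adjusted p-values of 0.175 to 0.992. A ratio that misses the threshold is not shown to be equal in the groups, and ratios between genes with copies elsewhere in the genome can still move with processing.

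**Figure D5:**
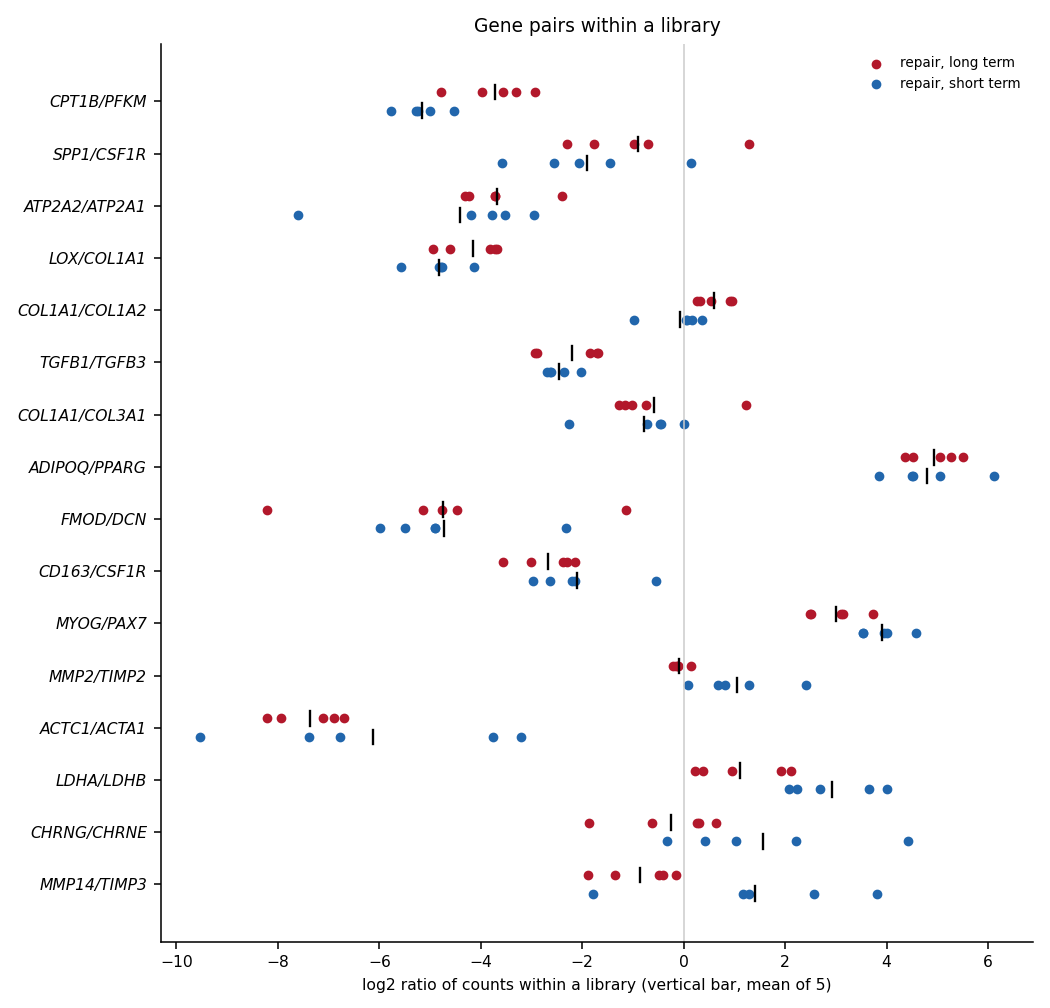
Log2 ratios of counts of 16 gene pairs within each library; for each pair the upper row holds the 5 long-term repairs and the lower row the 5 short-term repairs, and vertical bars are means. In each of the 16 pairs the values of the groups overlap.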

How the data were processed

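Total RNA of each muscle was extracted and made into libraries commercially, per the labels. Each library came as 1 table of unnormalized read counts that the authors deposited. The submitters' processing notes name STAR, edgeR and OryCun2.0; versions, annotation, the counting tool and its use of strand are not stated. Of 18210 entries per table, 26 with altered names were dropped (up to 0.163% of counts per library), 15 rows of 7 repeated symbols were summed, 578 LOC identifiers took a RefSeq symbol, and 79 RPL, RPS and TPT1 genes (9 of them RPS6K kinases) were left out, which left 18097 genes.

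All 34 libraries in 6 groups were fitted with edgeR 4.0.16 in R 4.3.3 (TMM scaling, filterByExpr, robust quasi-likelihood test), and 12882 genes were tested. In counts simulated for this comparison, 44% of 2-fold and 85% of 4-fold changes were recovered, with 7 false calls. The simulation changed only a small share of genes and held no outlying library. These rates therefore need not hold for the data, where 45.8% of genes were called. CPM used TMM-scaled totals, and list means a prior count of 2. Standard errors were taken from the fold change and its F statistic. Counting error is only part of the spread. No 2 libraries of a group were alike within sampling noise: over 91 pairs, chi-square divided by its degrees of freedom was at least 9.86. Same-numbered repaired libraries did not pair: their deviations correlated at -0.18 to 0.15, with 1 of 5 pairs over 0.1.

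Within-library ratios used a pseudocount of 0.5 and an exact permutation test in scipy 1.17.1 with 252 arrangements; 7 of 23 listed pairs had too few counts or no gene and were not analysed. Alternatives were DESeq2 1.42.0, limma 3.58.1 voom with quality weights, other scalings, no low-count filter, the left-out genes kept, equal depth, only the groups compared, a replicate block and each library left out. Members and lists were chosen with earlier results of these data known. Named genes are a fixed panel (31 of 35 tested), the 8 largest rises (1 of them not reported here) and falls without overlap and with a mean log2 CPM of at least 1, up to 3 members per list and direction, and the ratio genes; which of them stand singly in the text was decided after their values were seen. Of 636 list genes 530 were tested. Promoter sequences were not used here.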

Additional observations from a re-analysis of the deposited data

Results flagged for a closer look

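Single libraries stood apart from the other 4 of their group in 23 of 348 sets of 5 values, by the gap to the nearest value divided by the range, with 0.71 as the limit for 5 values. Chance flags about 1 set in 20, or 17.4 of 348. Of the 23, 8 were in short-term replicate 4 and 6 in short-term replicate 5. Values below are log2 CPM unless a ratio is named.

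In long-term repair, replicate 3 was highest for MYMX at -2.59 (gap 1.0), where the other 4 libraries had 0 counts, and for SLC16A7 at 6.70 against 5.06 to 5.51 (gap 0.723), and lowest for the mean of glycolysis and glycogen genes at 8.44 against 8.80 to 8.89 (gap 0.797). Replicate 1 was lowest for MB at 10.03 against 10.58 to 10.79 (gap 0.733) and for the mean of unfolded protein response genes at 5.06 against 5.19 to 5.23 (gap 0.739). Replicate 5 was highest for PDK4 at 11.65 against 9.37 to 9.71 (gap 0.852). Replicate 4 was highest for the log2 ratio COL1A1/COL3A1 at 1.23 against -1.28 to -0.75 (gap 0.788) and for MMP2/TIMP2 at 0.15 against -0.20 to -0.11 (gap 0.727).

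In short-term repair, replicate 4 was lowest for LTBP1 at 3.29 against 6.49 to 7.30 (gap 0.798), LGALS3 at 2.81 against 4.91 to 5.71 (gap 0.727), NCAM1 at 3.79 against 7.45 to 8.29 (gap 0.813) and MYBPH at 3.40 against 7.47 to 8.66 (gap 0.774). It was also lowest for the means of basement membrane genes, 4.91 against 5.81 to 6.05 (gap 0.787), and of fibro-adipogenic progenitor genes, 5.04 against 6.66 to 7.18 (gap 0.754). The same library had the lowest log2 ratios COL1A1/COL1A2, -0.98 against 0.04 to 0.36 (gap 0.762), and ATP2A2/ATP2A1, -7.60 against -4.20 to -2.95 (gap 0.731). Replicate 5 was highest for TYMS at 2.80 against 1.88 to 2.08 (gap 0.79), ENO1 at 9.39 against 7.98 to 8.25 (gap 0.808), ACTA2 at 9.97 against 4.75 to 6.19 (gap 0.723), IER3 at 6.93 against 2.42 to 3.07 (gap 0.855) and the mean of reference genes at 7.65 against 7.21 to 7.27 (gap 0.863), and lowest for PPARGC1A at 1.82 against 3.56 to 3.79 (gap 0.88). Replicate 2 was highest for ATXN7L2 at 4.27 against 3.10 to 3.26 (gap 0.861).

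The difference between terms differed between repair and gel for ATXN7L2, by 2.12 on the log2 scale (repair minus gel), and for XBP1, by -1.88, both tested as an interaction by edgeR.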

How the results depend on the processing

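Term and processing cannot be told apart, and no setting separates them. The number of genes called between terms in repair, 5898, ran from 4604 without short-term replicate 5 to 6769 without short-term replicate 4 when libraries were left out singly. It was 3100 with a replicate block on the 10 repaired libraries, whose numbers do not pair them, and 0 of 5 libraries correlated best with their own number. Of the called genes 39.3% were higher, against 17.9% with library totals only. The 2 calls between repair and gel became 28 with DESeq2, 5 with limma voom, 1 with library totals only, 1 with only the groups compared, and 10 without short-term repair replicate 4 and short-term injury replicate 3, a setting chosen after seeing the data; leaving out single libraries gave 2 to 4. XBP1 stayed called in all of these, and ATXN7L2 was not called with library totals only (2.10, adjusted p = 0.0882 by edgeR) or with only the groups compared (2.10, adjusted p = 0.0605). Its difference between terms in repair, not called, ran from -0.23 to 0.17 (without short-term replicate 2) when libraries were left out singly. Of the ratios, 4 changed sign: FMOD/DCN gave 0.05 with a pseudocount of 5 and -0.93 to 0.84 when 1 library was left out, ADIPOQ/PPARG -0.11 to 0.46, COL1A1/COL3A1 -0.27 to 0.38, and ATP2A2/ATP2A1, 0.73 over all libraries and below 0 only without short-term replicate 4, -0.07 to 1.10. No ratio passed adjustment under any alternative. Of the alternative values for named genes, 2513 kept direction and side of the threshold, 61 lost the call and 6 gained it, among them MYH3 with limma voom (1.38, adjusted p = 0.0489) and METTL21C with DESeq2 (2.16, adjusted p = 0.041). The cause of these changes was not tested. Depth limits the low genes: MYMX, CTHRC1 and MKI67 had 1, 34 and 32 counts over the 5 long-term repair libraries.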
